A study of Mus musculus with 4 samples.

Results

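Potassium channel subunits were examined in the ureter of mice with and without the microRNA genes miR-143 and miR-145. The members were all genes whose symbol starts with Kcn, together with Abcc8 and Abcc9, which encode the sulfonylurea receptors of ATP-sensitive potassium channels. With 1 probe set kept per gene, the brightest over the 4 arrays, there were 92 member genes among 19296 genes on the array. Of these 92 symbols, 3 belong to noncoding RNAs (Kcnd3os, Kcnmb4os1 and Kcnmb4os2) and 1, Kcnrg, to a regulator of channels. Other genes of this kind were not analysed here.

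Potassium channels let potassium ions leave the cell, which draws the membrane voltage of smooth muscle toward rest and limits calcium entry through voltage-gated calcium channels. Opening them relaxes smooth muscle, and closing them favours contraction. Different families respond to voltage, to calcium inside the cell, to the ratio of ATP to ADP, or conduct at rest, and several need an auxiliary subunit to reach the membrane or to set their sensitivity. In the ureter, large-conductance calcium-activated and ATP-sensitive channels are known to shape the action potential that starts each peristaltic wave, and other potassium channels serve salt transport in epithelium.

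The mutant group was 2 male miR-143/145-/- mice that were 2.5 months old and had hydronephrosis, in which urine that cannot drain widens the kidney. The control group was 2 male miR-143/145+/+ mice that were 4.5 months old and had normal kidneys. All were of a 129Sv/C57BL6 mix, with ureter as the tissue and 1 array per mouse. Genotype, age and kidney state cannot be told apart in this design, and knockout and wild type below stand for these groups of mice.

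The array medians on the log2 scale were 7.89 and 7.89 for the knockout arrays, against 7.81 and 7.84 for the wild type arrays. The deleted genes checked the labels: Mir145a was at least 3.42-fold and Mir143 at least 2.24-fold lower in knockout (limma, adjusted p = 0.00193 and 0.0148), with both below background there. All 8 of 8 smooth muscle and 8 of 8 urothelium markers lay above background, and so did all 7 of 7 adipocyte markers. The lower quartile of all probe sets was 6.26 and 6.27 on the knockout arrays, against 6.36 and 6.45 on the wild type arrays. Signals of different probe sets depend on their probes, and brightness below is not an amount of RNA that can be set against another gene. In whole tissue, fewer cells of a type and less RNA per cell cannot be told apart.

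Of the 92 potassium channel genes, 71 lay above the background level of log2 6.58 in at least 1 genotype, against 73.7% of all genes. That level is the 95th percentile of the mean signals of 1024 olfactory receptor genes, smell receptors that serve here as a gauge of nonspecific signal. In both genotypes 52 members were above it, 3 in knockout but not wild type, and 16 in wild type but not knockout. All genes leaned the same way: 13515 and 13558 were above it on the knockout arrays, against 13838 and 14231 on the wild type arrays. The split by genotype was not counted over all genes. On single arrays, 48 members were above it on all 4, 25 on some and 19 on none. Just inside the level were Kcnn2 and Kcnc1, whose higher genotype mean was 6.58 for each, and just outside it were Kcnj14 at 6.52 and Kcnj3 at 6.48.

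In knockout ureter 6 potassium channel genes rose, and none fell (limma, adjusted p under 0.05 over all genes). They were Abcc9, Kcnma1, Kcnn3, Kcnq5, Kcnt2 and Kcnh2, which rose by 1.65-fold to 1.88-fold. The share of all genes that passed was 1.90% higher and 0.477% lower, so 6 of 92 is 6.52% against 1.90%. All 6 were above background on every array. Before adjustment, 14 members were higher and 28 lower at p under 0.05, against 12.7% and 13.8% of all genes. Both knockout mice were above both wild type mice for 15 of 92 members and below them for 44, against 28.0% and 32.0% of all genes. With 1 wild type mouse left the test passed nothing: without wild type replicate 1, and likewise without wild type replicate 2, limma passed 0 members and 0 of all genes, the deleted Mir145a included (adjusted p = 0.183 and 0.200). The differences of the 6 genes then lay between 0.64 and 0.92, beside 0.72 to 0.91 with all mice. The median difference of the 92 members was -0.24 without wild type replicate 1 and -0.08 without wild type replicate 2. That of all genes was -0.02 and -0.01. The differences of the 6 genes lay between 0.71 and 1.02 without knockout replicate 1. Without knockout replicate 2 they lay between 0.72 and 0.84.

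**Figure D1:**
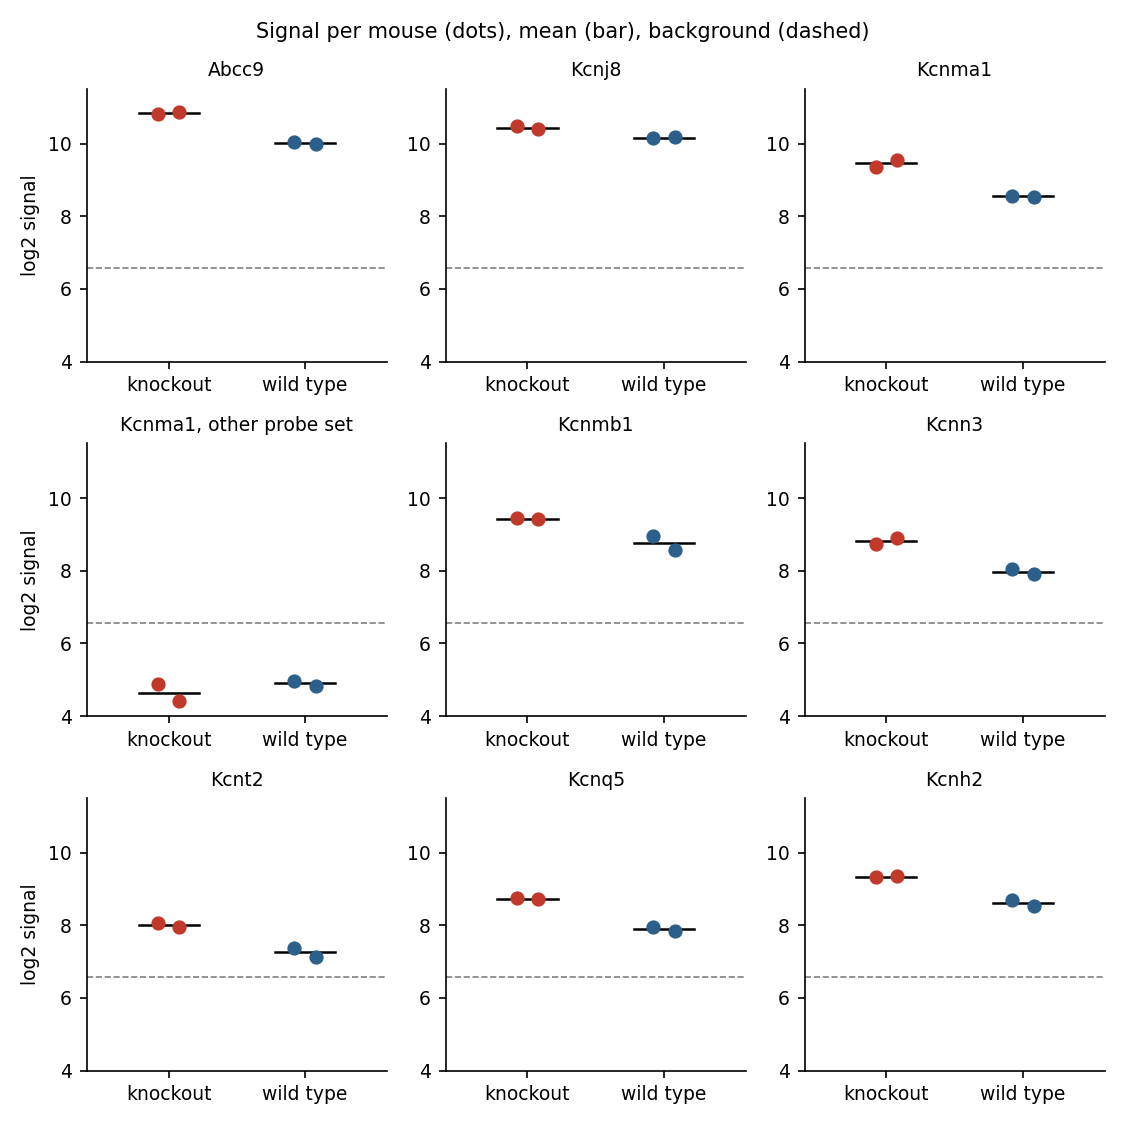
Log2 signal (vertical axis) of 9 probe sets in each mouse, with knockout left of wild type; dots are mice, bars the mean of 2 mice and the dashed line the background level. Both knockout mice lie above both wild type mice for Abcc9, Kcnj8, Kcnma1, Kcnmb1, Kcnn3, Kcnt2, Kcnq5 and Kcnh2, while the other probe set of Kcnma1 lies below background on all 4 arrays.

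ATP-sensitive channels pair a pore of the Kir6 type with a sulfonylurea receptor, and close when ATP is high. Abcc9, the receptor SUR2 of muscle and vessel channels, measured 10.82 and 10.86 in the knockout mice, against 10.04 and 9.97 in the wild type mice. The genotypes did not overlap, and Abcc9 rose by 0.83 on the log2 scale (SE 0.11, adjusted p = 0.0316). Kcnj8, the pore Kir6.1 that works with this receptor and lies next to it on chromosome 6, measured 10.48 and 10.40 in knockout, against 10.14 and 10.18 in wild type. Its knockout mice were also both above the wild type mice, with a difference of 0.28 that did not pass (SE 0.11, adjusted p = 0.178). The other pair is Kcnj11, the pore Kir6.2 of pancreas and heart, and Abcc8, the receptor SUR1, which are neighbours on chromosome 7. Kcnj11 measured 6.99 and 7.14 in knockout, against 7.33 and 7.54 in wild type. Abcc8 measured 6.68 and 6.867 in knockout, against 6.871 and 7.24 in wild type. Both knockout mice were below both wild type mice for each gene, though for Abcc8 the nearest values of the genotypes were almost equal. The differences of -0.37 for Kcnj11 and -0.28 for Abcc8 did not pass (limma, adjusted p = 0.132 and 0.292).

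The stretches upstream of these neighbours and of the large-conductance channel with its beta subunit are shown because they start the 2 muscle channel pairs in which 1 partner passed the test and the other did not. Each is the 250 bases before the RefSeq start on assembly GRCm38.p6, written 5′ to 3′ on the strand of the gene, with capitals for GC boxes (GGGCGG on either strand).
Abcc9, chr6:142702275-142702524, minus strand: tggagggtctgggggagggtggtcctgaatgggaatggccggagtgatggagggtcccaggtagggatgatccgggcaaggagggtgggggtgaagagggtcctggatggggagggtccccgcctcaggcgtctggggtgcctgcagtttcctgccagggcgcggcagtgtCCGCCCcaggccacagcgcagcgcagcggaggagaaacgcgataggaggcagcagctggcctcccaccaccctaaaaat
Kcnj8, chr6:142571615-142571864, minus strand: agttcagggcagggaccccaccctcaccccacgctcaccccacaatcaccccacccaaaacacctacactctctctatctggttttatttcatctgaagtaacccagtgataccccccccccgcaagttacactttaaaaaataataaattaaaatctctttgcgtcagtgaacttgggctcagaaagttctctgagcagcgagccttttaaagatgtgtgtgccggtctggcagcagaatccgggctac
Kcnma1, chr14:24004206-24004455, minus strand: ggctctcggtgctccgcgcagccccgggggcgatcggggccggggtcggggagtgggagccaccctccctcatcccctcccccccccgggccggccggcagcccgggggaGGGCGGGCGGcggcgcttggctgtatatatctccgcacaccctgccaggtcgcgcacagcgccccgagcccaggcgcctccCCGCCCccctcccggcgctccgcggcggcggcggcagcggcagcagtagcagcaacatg
Kcnmb1, chr11:33962763-33963012, plus strand: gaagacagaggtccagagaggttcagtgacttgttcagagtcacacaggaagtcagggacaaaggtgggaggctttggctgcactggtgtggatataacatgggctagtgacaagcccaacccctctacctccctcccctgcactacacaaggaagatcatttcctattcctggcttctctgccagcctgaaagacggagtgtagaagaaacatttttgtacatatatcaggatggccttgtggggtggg
The Abcc9 window held 1 GC box and the Kcnma1 window 3, of which 2 share letters. The windows of Kcnj8 and Kcnmb1 held 0, and their share of G and C was 49.2% and 50.8%, beside 66.8% for Abcc9 and 79.2% for Kcnma1. Windows of the other members that rose ran from 44.4% (Kcnq5) to 73.6% (Kcnh2). The median share was 58.8% over member windows and 52.4% over all windows. A GC box was found in 43 of 95 windows of the 70 member genes with a window, against 32.7% of all 32851 windows of this length. The 6 members that rose have 7 windows, and 3 of them, those of Abcc9, Kcnma1 and Kcnh2, held the motif. A TATA box (TATAAA, either strand) stood in 0 of these 7 and in 3 of 95 member windows, against 12.4% of all. The CArG box, the element bound by serum response factor, stood in 0 of 95 member windows, against 1.47% of all windows. A match or its lack describes these letters only.

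Large-conductance calcium-activated channels, called BK, open with voltage and calcium together. Their pore gene Kcnma1 measured 9.35 and 9.56 in knockout, against 8.55 and 8.54 in wild type. With no overlap between the genotypes it rose by 0.91 (1.88-fold, SE 0.12, adjusted p = 0.0318), the largest difference of any member. A further probe set carries the symbol Kcnma1 and was not the one used. It measured 4.88 and 4.42 in knockout, against 4.98 and 4.84 in wild type, below background on all 4 arrays. Its difference was -0.26 (SE 0.17, adjusted p = 0.367 in the fit of all probe sets), where the probe set used kept a pass at adjusted p = 0.0358. With the mean of both probe sets, Kcnma1 differed by 0.32 and did not pass (adjusted p = 0.141). The platform annotation gives the used probe set many RefSeq transcripts of Kcnma1, and the dim one GenBank accessions with no RefSeq transcript.

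The beta subunits raise the calcium sensitivity of this pore, and Kcnmb1 is the form of smooth muscle. Kcnmb1 measured 9.44 and 9.42 in knockout, against 8.96 and 8.57 in wild type. The knockout mice were both higher and closer to each other than the wild type mice. The difference of 0.66 did not pass (SE 0.15, adjusted p = 0.0681). Whether the difference of Kcnmb1 departs from that of the pore, or that of Kcnj8 from that of Abcc9, was not tested. Kcnmb4, the form best known from neurons, measured 6.56 and 6.75 in knockout, against 6.72 and 7.13 in wild type, so that the genotypes overlapped (difference -0.27, adjusted p = 0.327). Kcnmb2 was below background on all 4 arrays, with a difference of -0.23. Among BK gamma subunits, Lrrc26 differed by 0.39 and Lrrc52 by -0.13 and neither passed, while Lrrc38 and Lrrc55 were below background in both genotypes.

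Small-conductance and intermediate-conductance channels open with calcium alone. Kcnn3, the small-conductance form SK3, measured 8.73 and 8.89 in knockout, against 8.05 and 7.90 in wild type. It rose by 0.84 without overlap (SE 0.13, adjusted p = 0.0353). Kcnn4, the intermediate-conductance channel, measured 8.37 and 8.85 in knockout, against 7.81 and 8.14 in wild type. Its knockout mice were both above, but the spread within each genotype was wide and the difference of 0.63 did not pass (adjusted p = 0.104). Kcnn1 went the other way, at 7.44 and 7.33 in knockout, against 7.79 and 7.98 in wild type, and its difference of -0.50 did not pass (adjusted p = 0.0754). Kcnn2 had genotype means on either side of the background level and overlapping mice.

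Kcnt1 and Kcnt2, which are gated by sodium, were grouped here with the calcium-activated pores. Kcnt2 measured 8.07 and 7.96 in knockout, against 7.38 and 7.14 in wild type, and rose by 0.76 (SE 0.13, adjusted p = 0.0420). Kcnt1 was below background in both knockout mice and at least 1.23-fold lower, without passing (adjusted p = 0.0820). Of 8 pore genes in the group of BK, small-conductance and sodium-activated channels, 3 rose and the other 5 failed the test. Of all genes, 1.90% rose and 0.477% fell. Their median difference was 0.40, beside -0.02 for all genes. The remaining member, Kcnu1, a sperm channel, lay below background.

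Among KCNQ channels, which carry a slow current that opens near rest, 3 genes were measured and 1 rose, against 1.90% of all genes. Kcnq5 measured 8.74 and 8.72 in knockout, against 7.96 and 7.84 in wild type, with both knockout mice well above. It rose by 0.83 (SE 0.12, adjusted p = 0.0319). Kcnq1, the cardiac and epithelial form, differed by -0.03 with overlapping mice, and Kcnq3, the neuronal partner, by -0.17. Kcne1, the small auxiliary subunit of Kcnq1, measured 8.48 and 8.69 in knockout, against 7.90 and 8.31 in wild type, and its difference of 0.48 did not pass (adjusted p = 0.132).

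Of 7 genes of the EAG and ERG families, 1 rose and 6 did not pass, where 1.90% of all genes rose. Kcnh2, the ERG channel whose current ends the cardiac action potential, measured 9.34 and 9.34 in knockout, against 8.69 and 8.54 in wild type. The genotypes did not overlap and the rise was 0.72 (SE 0.12, adjusted p = 0.0394). The others above background, Kcnh1, Kcnh3 and Kcnh4, had knockout mice wholly below wild type mice, with differences between -0.36 and -0.13. Kcnh8, the other member with 2 probe sets, was below background with both, at differences of -0.11 and -0.09.

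**Figure D2:**
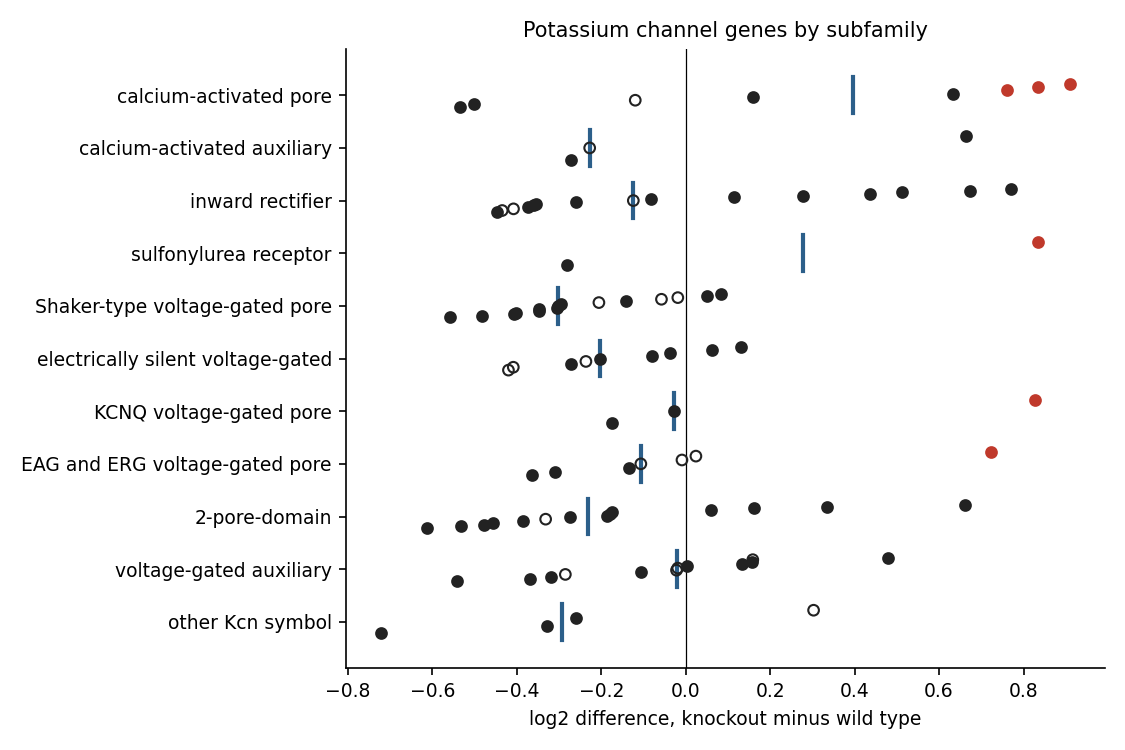
Log2 difference, knockout minus wild type (horizontal axis), of the 92 potassium channel genes by subfamily; each circle is a gene, red for those that passed, open for those below background in both genotypes, and the blue bar is the median of the subfamily. The 6 red circles lie between 0.72 and 0.91, and the Shaker-type pores lie mostly left of 0.

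The classical voltage-gated pores of the Shaker, Shab, Shaw and Shal types went the other way in value, though none passed. Of 15 measured, limma passed 0 at an adjusted p of 0.05, and the median difference was -0.30. By unadjusted p under 0.05, 6 were lower and 0 higher, against 13.8% and 12.7% of all genes. Above background were 12. In 9 of the 15 both knockout mice were below both wild type mice, against 32.0% of all genes and 44 of 92 members. The brightest was Kcna2, a delayed rectifier of axons and muscle, at 8.98 and 8.99 in knockout, against 9.38 and 9.29 in wild type (difference -0.35, adjusted p = 0.118). Kcna3 and Kcna10, its neighbours on chromosome 3, differed by -0.40 and -0.41. Kcna5, a delayed rectifier of arterial muscle, differed by -0.30, as did Kcna1 beside it on chromosome 6, while Kcna6 in the same row differed by 0.05. Kcnd3, a pore of the transient outward current, measured 8.23 and 8.25 in knockout, against 8.29 and 8.02 in wild type, with no separation. The partner gene Dpp6, which trafficks and speeds channels of the Kcnd type, rose by 0.75 (adjusted p = 0.0403), though with the mean of its 2 probe sets it differed by 0.13 and did not pass (adjusted p = 0.498), and with quantile normalization it differed by 0.64 and did not pass (adjusted p = 0.0628).

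Of 9 electrically silent subunits, which form no channel alone and modify other voltage-gated pores, 0 passed in the limma fit. By unadjusted p under 0.05, 1 was lower and 0 higher, against 13.8% and 12.7% of all genes. The brightest, Kcng1, measured 8.58 and 8.66 in knockout, against 8.43 and 8.69 in wild type. Kcns3 differed by -0.27, and both mice of knockout were below those of wild type. Of 12 auxiliary subunits of voltage-gated channels limma passed 0. By unadjusted p under 0.05, 3 were lower and 1 higher, against the same 13.8% and 12.7% of all genes. Kcnip3, a calcium-binding partner of Kcnd pores that also acts in the nucleus, measured 9.69 and 9.75 in knockout, against 9.69 and 9.75 in wild type, so the 2 groups had nearly the same values. Kcne1l, an inhibitory subunit encoded on the X chromosome, measured 6.88 and 6.81 in knockout, against 7.31 and 7.46 in wild type. It differed by -0.54 without overlap and did not pass (SE 0.12, adjusted p = 0.0630).

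Channels with 2 pore domains give the steady leak that sets resting voltage. Of 14 measured, 13 were above background and limma passed 0. By unadjusted p under 0.05, 6 were lower and 2 higher, against 13.8% and 12.7% of all genes. Kcnk3, the acid-sensitive channel TASK-1, measured 10.25 and 9.47 in knockout, against 10.49 and 10.46 in wild type. Both knockout mice were lower, knockout replicate 2 by far the more, and the difference of -0.61 did not pass (SE 0.24, adjusted p = 0.159). Kcnk1, the channel TWIK-1 of epithelia, measured 10.005 and 10.55 in knockout, against 9.52 and 9.71 in wild type, with a difference of 0.66 (adjusted p = 0.0948). Kcnk2, the stretch-sensitive channel TREK-1, differed by 0.34, and Kcnk15 and Kcnk12 by -0.48 and -0.46. Without knockout replicate 1, the difference was 0.93 for Kcnk1 and -1.001 for Kcnk3. Without knockout replicate 2, it was 0.39 for Kcnk1 and -0.22 for Kcnk3.

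Inward rectifiers pass potassium more readily into the cell and hold the resting voltage. Of 15 measured, Kcnj8 and Kcnj11 included, 11 were above background and limma passed 0. By unadjusted p under 0.05, 6 were lower and 3 higher, against 13.8% and 12.7% of all genes. Kcnj15, the channel Kir4.2, measured 9.16 and 8.92 in knockout, against 8.65 and 8.41 in wild type, a difference of 0.51 (adjusted p = 0.0918). Kcnj13, the channel Kir7.1 of transporting epithelia, measured 7.28 and 7.62 in knockout, against 6.49 and 6.87 in wild type, a difference of 0.77 (SE 0.18, adjusted p = 0.0659). For both the knockout mice were wholly above the wild type mice. Kcnj2, the strong rectifier Kir2.1, measured 6.46 and 6.64 in knockout, against 7.38 and 6.24 in wild type, where the wild type mice lay on either side of the knockout mice.

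Some members varied between mice of one genotype beside markers of another cell type. These members were chosen after their values were seen, apart from Kcnk3 and Kcnk1, which were among the 10 brightest. The pairing of members with marker lists, theirs included, was not set beforehand. Kcnj1, the channel ROMK of the distal nephron, measured 7.48 and 5.80 in knockout, against 5.77 and 6.17 in wild type. Kcnj16, the tubule channel Kir5.1, measured 7.58 and 5.62 in knockout, against 6.01 and 6.31 in wild type. Both stood above background in knockout replicate 1 alone, and without that mouse neither was called by limma, while without knockout replicate 2 both were. The mean of 7 kidney tubule markers was 8.19 and 6.63 in knockout, against 6.54 and 7.002 in wild type, likewise highest in knockout replicate 1. Aqp2, of the collecting duct, did not follow, at 7.53 and 7.40 in knockout, against 7.65 and 7.95 in wild type. Of those 7 markers, 6 were above background and 0 passed. In knockout 1 was wholly higher and 1, Aqp2, wholly lower, against 28.0% and 32.0% of all genes. The part of kidney tissue in these values was not tested.

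Kcnk3 is known from mouse brown fat as well as from muscle. The mean of 7 adipocyte markers was 12.55 and 12.08 in knockout, against 12.83 and 12.72 in wild type, which puts the 4 mice in the order of their Kcnk3 values. Ucp1, the brown fat marker of this list, did not follow that order, at 13.31 and 13.06 in knockout, against 13.12 and 13.22 in wild type (difference 0.02, adjusted p = 0.955). Of these 7 markers 5 were lower in both knockout mice than in both wild type mice, against 32.0% of all genes, and 0 passed. The mean of 8 urothelium markers was 11.81 and 12.20 in knockout, against 11.25 and 11.51 in wild type. All 8 were higher in both knockout mice than in both wild type mice, against 28.0% of all genes, and 1, Trp63, passed. Kcnk1 and Kcnn4 put the 4 mice in the same order as the urothelium mean. The mean of 8 smooth muscle markers was 11.94 and 11.79 in knockout, against 11.58 and 11.49 in wild type. Wholly higher were 7 and wholly lower 1, Des (difference -0.30), against 28.0% and 32.0% of all genes. Of the 7, Myocd differed by 1.01 and passed, and the others differed by 0.17 to 0.49 and did not. The 6 members that rose therefore rose beside smooth muscle and urothelium lists whose means were also higher, by 0.33 and 0.62. Means of the kidney tubule and interstitial cell lists were higher too, by 0.64 and 0.21. Those of the adipocyte, endothelium, lymphocyte, macrophage, nerve and glia, and skeletal muscle lists were lower. The part of cell makeup was not tested.

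**Figure D3:**
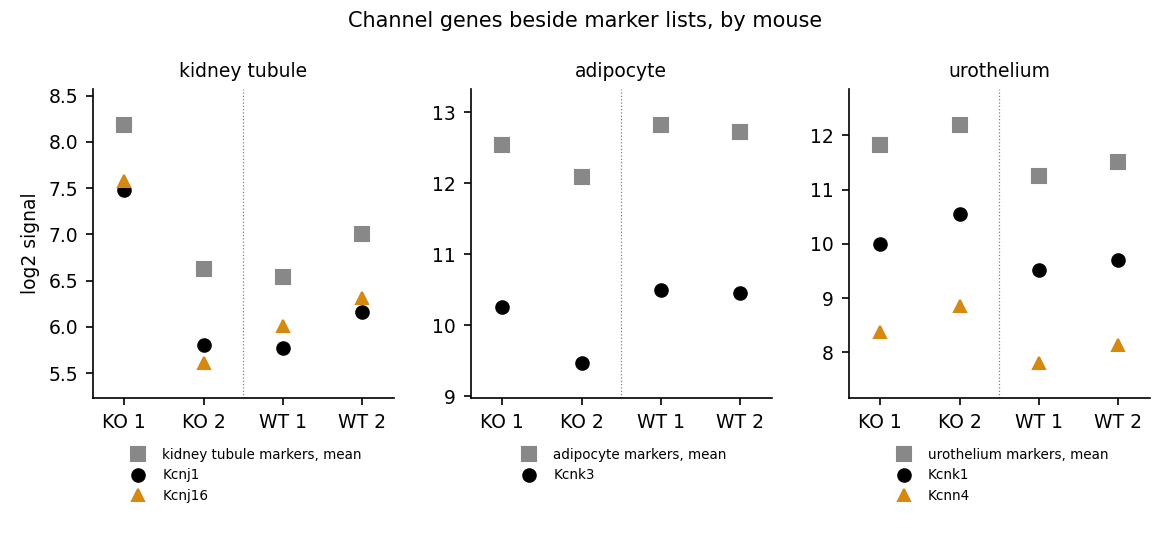
Log2 signal by mouse (KO, knockout, left of WT, wild type) of 5 potassium channel genes and, as squares, the mean of the marker list named above each panel. Kcnj1 and Kcnj16 peak in knockout replicate 1 with the kidney tubule markers, Kcnk3 is lowest in knockout replicate 2 with the adipocyte markers, and Kcnk1 and Kcnn4 follow the order of the urothelium markers.

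The direction of the members went with their brightness. The limit of log2 8 between bright and middle genes was chosen after seeing the values. Of 20 members with a mean signal over 8, 16 had a positive difference and 5 rose, with a median of 0.41; of all genes in that range 62.8% were positive and 2.79% rose, with a median of 0.08. Of 41 members between background and 8, 33 had a negative difference and 1, Kcnt2, rose, with a median of -0.27, against -0.08 for all genes in that range, of which 40.3% were positive. Of 31 members with a mean under background 25 were negative, with a median of -0.17, against -0.12 for all such genes, of which 25.9% were positive. For 12 members both knockout arrays were below background while the wild type mean was above it, and they were lower by bounds of at most 1.30-fold, none passing. The largest of these bounds was that of Kcnmb4os2, an RNA whose gene overlaps Kcnmb4 in the gene table (adjusted p = 0.0521). For 3 members, Kcnj1, Kcnj16 and Kcnn2, the bound ran the other way and was at most 1.05-fold.

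**Figure D4:**
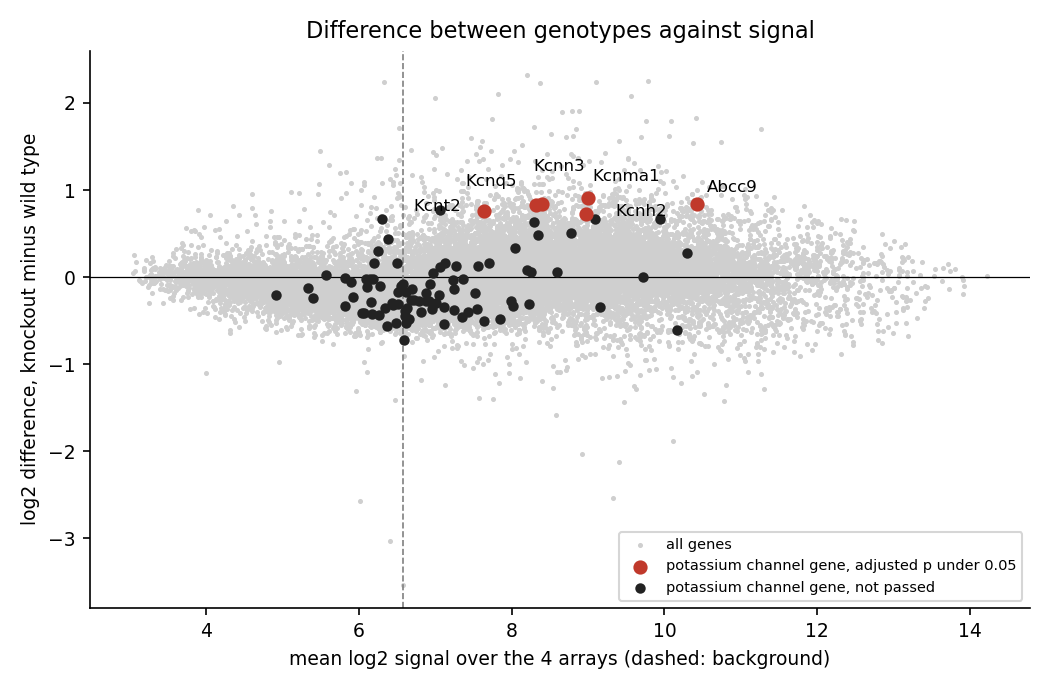
Log2 difference, knockout minus wild type (vertical axis), against mean log2 signal over the 4 arrays (horizontal axis) for all genes in grey and the potassium channel genes in red (passed) and black (not passed); the dashed line is the background level. Of 20 channel genes over 8, 16 lie above 0, and of 41 between background and 8, 33 lie below it.

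The direction of the 6 rises did not turn under any scaling tried, but the balance of the other members moved with it. With arrays centred on their medians, 25 members were positive and 67 negative, against 30 and 62 as deposited, and with a further quantile normalization 38 and 54. The median difference of all genes was -0.10 with centring and -0.01 with quantile normalization, and that of the members -0.25 and -0.07, beside -0.02 and -0.17 as deposited. Quantile normalization ended the calls of Kcnn3, Kcnh2 and Kcnt2 (adjusted p = 0.0542, 0.0612 and 0.0643), at differences of 0.74, 0.61 and 0.75. Centring added Kcne1l and Kcnmb4os2 as lower.

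Genes that work with these channels were drawn from a list of 34, of which 28 were measured and 23 were above background. Of the 28, 3 rose and 0 fell (limma, adjusted p under 0.05), with 12 higher and 1 lower at unadjusted p under 0.05. That is 10.7% that rose, against 1.90% of all genes, of which 12.7% were higher and 13.8% lower before adjustment. The list was chosen with earlier results of these data known, so this contrast is not a test of it. The median difference was 0.25, beside -0.02 for all genes. Besides Dpp6, the genes of the list that rose were Pde5a and Cacna1d. Pde5a, the phosphodiesterase that removes the cyclic GMP by which nitric oxide opens BK channels, rose by 0.80 (11.29 and 11.38 in knockout, against 10.55 and 10.52 in wild type, adjusted p = 0.0319). Cacna1d, a voltage-gated calcium channel, rose by 0.66 at adjusted p = 0.0499, a call that was also lost with centring (adjusted p = 0.0533), quantile normalization (0.0726), all probe sets (0.0562), array weights (0.0515) and without knockout replicate 2 (0.0880). Both subunits of soluble guanylate cyclase, Gucy1b1 and Gucy1a1, had knockout mice wholly above wild type mice, with differences of 0.57 and 0.53 (adjusted p = 0.0526 and 0.0714). Ano1, a calcium-activated chloride channel that opposes potassium channels, differed by 0.49, and Cacna1c, the main calcium channel of smooth muscle, by 0.50, and neither passed (adjusted p = 0.0750 and 0.0812). Hcn4, a pacemaker channel, differed by -0.36 (adjusted p = 0.116).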

How the data were processed

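Per the labels' protocols, each array took 500 ng of total ureter RNA from 1 mouse, on an Affymetrix whole-transcript design. The log2 values are those the authors deposited, 1 per probe set and mouse. The submitters' processing notes name RMA, limma 3.12.1 and R 2.15.0. RMA makes arrays alike, which reduces changes shared by most genes. Their genome build was not stated in the labels or files used. Of 23309 probe sets, 20728 have 1 symbol, 1174 several and 1407 none; only the first kind was used. For 804 genes with several probe sets the brightest was kept, which left 19296. The genotypes were compared with limma 3.58.1 under R 4.3.3 (lmFit, eBayes, no covariate), p adjusted by Benjamini-Hochberg over the 19296 genes, and the moderated standard error as SE. Where a genotype was below background on both arrays, a fold is a bound, the brighter mean against the background level. The arrays' number, 2 per genotype, limits the precision.

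The members and the gene lists were chosen with earlier results of these data known. Named genes are members past adjusted p 0.05, the 10 of smallest p and the 8 of largest difference above background, the 10 brightest, the brightest of each subfamily, the genes of the BK and ATP-sensitive channels, and listed partner genes that passed; other genes were named after seeing their values. Marker lists for lymphocytes, macrophages, endothelium, nerve and glia, skeletal muscle and interstitial cells were also averaged, with mean differences of -0.51, -0.20, -0.27, -0.07, -0.06 and 0.21. Promoter windows are RefSeq's, GRCm38.p6. A simulation of the knockout and wild type comparison covered 19296 genes, 200 of them changed. There limma recovered 72% of changes of 1 and 100% of changes of 2 on the log2 scale, but 0 of those of 0.8 and 0 of those of 0.5. In the data 459 genes passed, so the Benjamini-Hochberg cut was less strict, and members passed at differences of 0.72 to 0.91. The simulated recovery therefore does not give that of these data. Alternatives changed 1 choice each: replicate block, scaling, filter, probe set rule, variance model, threshold, background level and mice left out.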

Additional observations from a re-analysis of the deposited data

How the results depend on the processing

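The count of 6 members higher and 0 lower was 6 and 0 with all probe sets, an intensity trend or array weights. With the mean of probe sets 5 were higher and 0 lower, and with a filter on dim genes 6 and 1. With centred arrays 6 were higher and 2 lower, and with robust eBayes 7 and 2. A further quantile normalization gave 3 and 0, and an adjusted p of 0.1 gave 10 and 10. Leaving out each mouse gave 0 to 9 higher and 0 to 2 lower. Over all genes 459 passed, against 204 with quantile normalization, 902 with robust eBayes, 2299 at 0.1 and 0 to 1744 without each mouse. All 6 calls were lost without wild type replicate 1 or 2, where 1 mouse is assumed to vary like the pair (adjusted p 0.183 to 0.228), at differences of 0.64 to 0.92. In those fits no gene passed, the deleted Mir145a included. Centring changed the share of higher genes among all calls to 49.4%, from 309 higher and 317 lower, beside 80.0%, from 367 and 92, as deposited. The replicate numbers name different mice, and deviations of same-numbered mice correlated at -0.03 across genes. The replicate block gave 11 members higher and 5 lower and 1922 genes in all. Members above background were 78 and 32 with the 90th and 99th percentile as the level, 71 with the mean of probe sets and 60 when both arrays of a genotype had to pass. Kcnip3, whose difference was near 0, turned to -0.095 with quantile normalization and -0.077 with centring, and lay between -0.029 and 0.034 without each mouse. Kcng1 turned to -0.056 and -0.017 with the same settings, and lay between -0.065 and 0.19 without each mouse. Neither passed in any setting. The causes were not tested.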
